A study of Mus musculus with 9 samples.

Results

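The 9 enzymes that carry tryptophan to nicotinamide adenine dinucleotide (NAD) in the liver, Tdo2, Ido2, Afmid, Kmo, Kynu, Haao, Acmsd, Qprt and Nadsyn1, were followed in mouse liver RNA. They were chosen by name, as the rows of the deposited gene table whose gene name is that of a pathway enzyme, which gave 12 of 52151 entries. Of these, 9 held at least 1 known transcript, 1 for each enzyme, and 3 held only transcripts that the authors assembled from these libraries (second entries of Ido2, Acmsd and Qprt). The levels below are those of the 9 known entries unless the assembled entries are named. Libraries came from 3 pair-fed mice (PF) on an isocaloric control liquid diet, 3 alcohol-fed mice (AF) on the Lieber-DeCarli diet, and 3 mice on the alcohol diet that also received MNA (AF with MNA), a compound the labels do not spell out, by daily intraperitoneal injection at 50 mg/kg. Feeding lasted 5 weeks and the age label is 8 weeks in all groups. The strain label is C57BL/6 for PF and AF, and C57BL/7, C57BL/8 and C57BL/9 for replicates 1, 2 and 3 of AF with MNA. Whether these labels name the mice correctly is not stated in the sources used here, and as labelled strain and MNA cannot be told apart. The methods name male C57BL/6J mice for the PF and AF groups and do not describe the MNA group. No group received MNA on the control diet, and no sample is labelled as a vehicle injection, so that injection and MNA cannot be told apart. Levels are in FPKM, fragment counts scaled to the length of the transcript and to the fragments of the library, so that levels can be set side by side between genes.

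The pathway, called the kynurenine or de novo route, is most complete in hepatocytes. Tryptophan 2,3-dioxygenase (Tdo2), a haem enzyme known to be induced by glucocorticoids and by tryptophan itself, opens the indole ring, and Ido2 catalyses the same step with low affinity. Arylformamidase (Afmid) releases kynurenine, the flavoprotein Kmo hydroxylates it, the pyridoxal phosphate enzyme Kynu cuts the product to 3-hydroxyanthranilate, and the iron enzyme Haao opens that ring. The resulting semialdehyde stands at a branch: Acmsd sends it towards complete oxidation, and what escapes Acmsd closes by itself to quinolinate, which Qprt turns into nicotinic acid mononucleotide. Nadsyn1 carries out the last step, the amidation that gives NAD.

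The start regions of Tdo2 and Haao are shown because these enzymes had the highest levels of the 9 and the most negative correlation of any pair over the libraries. Each run spans 250 bases before to 50 bases after the RefSeq start on GRCm38.p6, written 5′ to 3′ on the strand of the gene, and capitals mark the half-site bound by many nuclear receptors (AGGTCA, here always as its reverse complement, TGACCT).
Tdo2, chr3:81975679-81975978, minus strand: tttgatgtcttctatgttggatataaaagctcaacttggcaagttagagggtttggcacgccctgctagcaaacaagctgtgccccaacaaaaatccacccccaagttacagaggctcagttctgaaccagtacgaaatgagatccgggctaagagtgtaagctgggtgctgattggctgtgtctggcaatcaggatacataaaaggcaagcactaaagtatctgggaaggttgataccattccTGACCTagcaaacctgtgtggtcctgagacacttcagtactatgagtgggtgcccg
Haao, chr17:83846741-83847040, minus strand: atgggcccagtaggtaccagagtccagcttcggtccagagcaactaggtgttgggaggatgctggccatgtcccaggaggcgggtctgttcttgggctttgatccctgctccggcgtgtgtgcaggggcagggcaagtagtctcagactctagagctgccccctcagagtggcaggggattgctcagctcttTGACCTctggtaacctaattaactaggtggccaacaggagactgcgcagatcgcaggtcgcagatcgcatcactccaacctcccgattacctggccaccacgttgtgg

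The start regions of 6 enzymes (Tdo2, Haao, Kmo, Qprt, Nadsyn1 and Afmid) were searched for motifs, beside all 32851 regions of the RefSeq table. The letters AGGTCA, read on both strands, were in 2 of these 6 (Tdo2 and Haao) and in 16.3% of all regions. The match began 6 bases before the start in Tdo2 and 58 before it in Haao. The other motifs searched were the glucocorticoid receptor half-site AGAACA (in Kmo and Haao, and in 19.0% of all regions), the HNF1 half-site GTTAAT (in Haao, and in 7.10% of all), the TATA box TATAAA (in Tdo2, and in 13.6% of all) and the aryl hydrocarbon receptor core GCGTG (in Tdo2 and Haao, and in 32.4% of all). The TATAAA match in Tdo2 began 229 bases before the start. A match describes these letters only, and binding was not measured.

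Haao RNA was by far the most abundant of the pathway, and Tdo2 came next in every group. The mean level of Haao in PF was 250.2 FPKM ± 34.4 (SD, n = 3), which placed it at the 99.2 percentile of the 12246 known genes at 0.5 FPKM or more in PF. Tdo2 stood at 56.2 ± 8.24 FPKM, Kmo at 39.4 ± 7.14, Qprt at 24.6 ± 15.2, Ido2 at 17.9 ± 2.32 and Kynu at 10.6 ± 1.26 (SD, n = 3 each). The 3 lowest were Nadsyn1 at 5.95 ± 0.461, Afmid at 5.55 ± 1.07 and Acmsd at 5.10 ± 0.527, at the 74.6, 73.0 and 70.7 percentiles. Haao, Tdo2 and Kmo held ranks 1 to 3 in all 3 groups, with no overlap of library values between Haao and Tdo2 or between Tdo2 and Kmo. The ranges of Kmo and Qprt, and of Qprt and Ido2, overlapped in each group, as did those of Nadsyn1, Afmid and Acmsd except Afmid and Nadsyn1 with MNA, so that their order was not resolved elsewhere. Those of Ido2 and Kynu overlapped in AF and with MNA but not in PF. Hepatocyte markers (Alb, Apoa1, Ttr, Cps1, Ass1 and Tat) summed to between 14316 and 21459 FPKM in the 9 libraries, whereas the 6 macrophage markers, of which 5 were in the table, summed to between 49.9 and 90.4. The 5 endothelial markers summed to between 19.7 and 24.3 FPKM in PF, 24.9 and 36.2 in AF and 30.4 and 33.8 with MNA, so that every alcohol-fed library was above every PF library, and the 4 neutrophil markers to between 0.23 and 0.68 in PF, against 0.73 to 1.44 in AF and 0.19 to 0.46 with MNA. Stellate or fibroblast markers summed to between 26.3 and 39.8 FPKM over all libraries, and those of cholangiocytes and lymphocytes to at most 2.46 and 1.19. The part of these cells in the values below was not tested. In bulk tissue fewer cells of a type and less RNA per cell cannot be told apart.

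**Figure D1:**
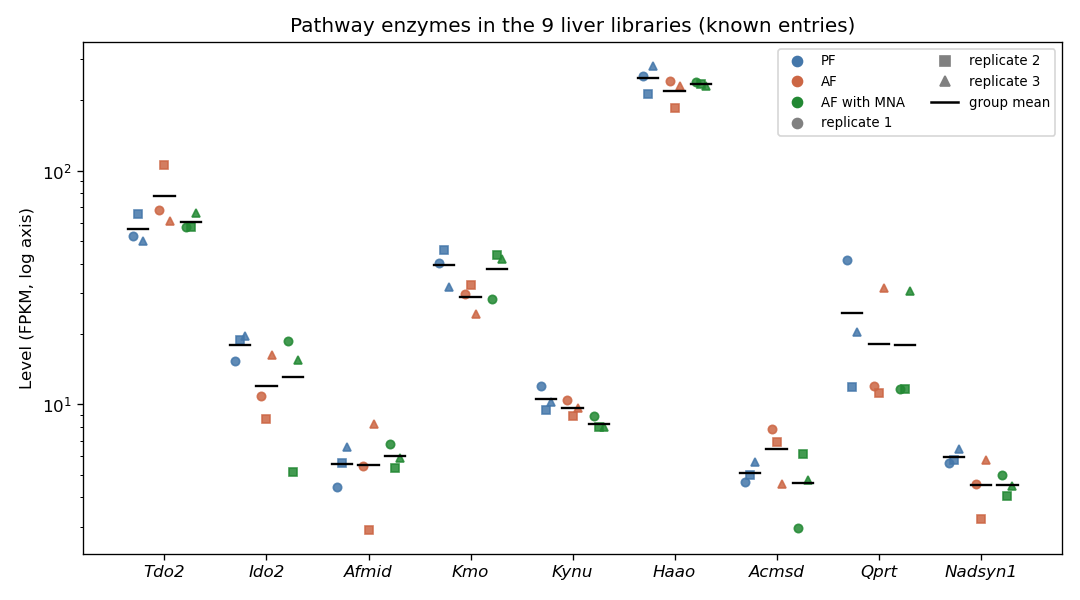
Level of each enzyme in FPKM on a log axis, 1 point per library (colour for the group, shape for the replicate), with black bars at the group means (n = 3). Haao lies between 186 and 282 FPKM in every library, and the points of PF, AF and AF with MNA overlap for most enzymes.

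Total reads ranged from 57800660 to 82179248 per library. AF replicate 3 and AF with MNA replicate 1 stood apart, with 9433 and 8934 FPKM summed over assembled intron transcripts against 2477 to 4937 in the other 7 libraries, and with more gene entries above 0 (33289 and 33292 against 27624 to 29504). The Afmid entry merges the neighbouring gene Syngr2 and the read-through gene Gm20708, so its level is not that of Afmid alone.

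The comparison of AF with PF addresses what the alcohol diet did to the RNA of the pathway. In these 6 libraries 7 of the 9 enzymes had a lower mean in AF and 2, Tdo2 and Acmsd, a higher mean, but no enzyme passed the test. The test was limma on log2(FPKM + 1) over 12268 known genes, with p-values adjusted over all of them. At an adjusted p under 0.05 it called 0 of the 9 enzymes and 40 genes in all (0.326%). At an unadjusted p under 0.05 it called 1 of the 9, Ido2, against 11.7% of all genes. Groups did not overlap for 0 of the 9 enzymes, against 18.3% of all genes. The threshold that the methods state for lncRNAs analysed with Ballgown, applied here to genes with limma's p-values (unadjusted p under 0.05 and a log2 ratio beyond 1 in either direction) was passed by 0 of the 9 and by 4.30% of all genes. The median log2 ratio of the 9 was -0.19 and that of all tested genes -0.03.

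For the first step, the entry to the pathway, the 2 enzymes lay on opposite sides. Tdo2 was at 52.7, 65.6 and 50.3 FPKM in PF replicates 1 to 3 and at 67.7, 105 and 60.9 in AF. AF replicate 2 was the highest of all libraries, and the lowest AF value fell inside the PF range. The log2 ratio of the means was 0.47, and on log2(FPKM + 1) the difference was 0.43 (95% interval -0.13 to 1.00, adjusted p = 0.542). Without AF replicate 2 the ratio was 0.19. Ido2 was at 15.3, 18.8 and 19.6 FPKM in PF and at 10.9, 8.68 and 16.3 in AF. Only AF replicate 3, a library with high intron signal, reached into the PF range. The log2 ratio was -0.58 and the fitted difference -0.58 (95% interval -1.14 to -0.02, adjusted p = 0.410), with a ratio of -0.87 without AF replicate 3 and -0.40 without AF replicate 2. The unadjusted p under 0.05 was lost with all 9 libraries in the fit and on leaving out PF replicate 2 or 3 or AF replicate 1 or 2. In each library the level of Tdo2 over that of Ido2 was 3.45, 3.49 and 2.56 in PF against 6.20, 12.1 and 3.74 in AF, and 3.06, 11.2 and 4.28 with MNA. The ratios in AF were above those in PF, and 1 of the MNA libraries was inside the PF range. No test was run on these ratios of levels, and the share of all gene pairs that would separate PF from AF was not computed.

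Of the middle steps, Afmid was at 4.44, 5.63 and 6.58 FPKM in PF and at 5.45, 2.89 and 8.20 in AF, so that the AF values enclosed the PF values. Its log2 ratio was -0.01 (adjusted p = 0.949) and was -0.41 when AF replicate 3 was left out and 0.30 when AF replicate 2 was. Kmo was at 40.4, 45.9 and 31.8 FPKM in PF and at 29.6, 32.4 and 24.5 in AF. A single AF library, replicate 2, lay above the lowest PF library, and the log2 ratio was -0.45 (fitted difference -0.43, 95% interval -0.87 to 0.01, adjusted p = 0.438). Kynu was at 12.0, 9.50 and 10.3 FPKM in PF and at 10.4, 8.91 and 9.61 in AF, a log2 ratio of -0.13 (95% interval of the fitted difference -0.44 to 0.20, adjusted p = 0.775) that was -0.04 without PF replicate 1 and -0.21 without PF replicate 2. Haao was at 255, 214 and 282 FPKM in PF and at 242, 186 and 230 in AF. Its log2 ratio was -0.19, with a fitted difference of -0.19 (95% interval -0.62 to 0.25, adjusted p = 0.733). The ratio was -0.08 without AF replicate 2, -0.09 without PF replicate 3 and -0.29 without PF replicate 2.

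At the branch, Acmsd was at 4.65, 4.97 and 5.68 FPKM in PF and at 7.85, 6.93 and 4.58 in AF. AF replicates 1 and 2 lay above all PF libraries and replicate 3 below them, with a log2 ratio of 0.34 (fitted difference 0.27, 95% interval -0.20 to 0.73, adjusted p = 0.646) that was 0.17 without AF replicate 1 and 0.54 without AF replicate 3. Qprt, the enzyme that commits quinolinate to NAD, was at 41.5, 11.9 and 20.5 FPKM in PF and at 12.0, 11.2 and 31.5 in AF. It varied by more than 3-fold inside PF alone, and its log2 ratio of -0.43 (95% interval of the fitted difference -1.69 to 0.90, adjusted p = 0.819) turned to 0.17 without PF replicate 1 and was -1.09 without AF replicate 3. Nadsyn1 was at 5.59, 5.79 and 6.47 FPKM in PF and at 4.55, 3.23 and 5.80 in AF. AF replicates 1 and 2 were below all PF libraries and replicate 3 was inside their range, with a log2 ratio of -0.39 (fitted difference -0.36, 95% interval -0.81 to 0.10, adjusted p = 0.534) that was -0.20 without AF replicate 2 and -0.61 without AF replicate 3.

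The design left room for differences that it could not call. Back on the fold scale of (FPKM + 1), the 95% interval lay between a halving and a doubling for 6 of the 9 enzymes in AF against PF and exceeded it for Tdo2 (0.911 to 2.01), Ido2 (0.455 to 0.986) and Qprt (0.309 to 1.86). An exact permutation test of 3 against 3 libraries cannot give a p below 0.1.

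**Figure D2:**
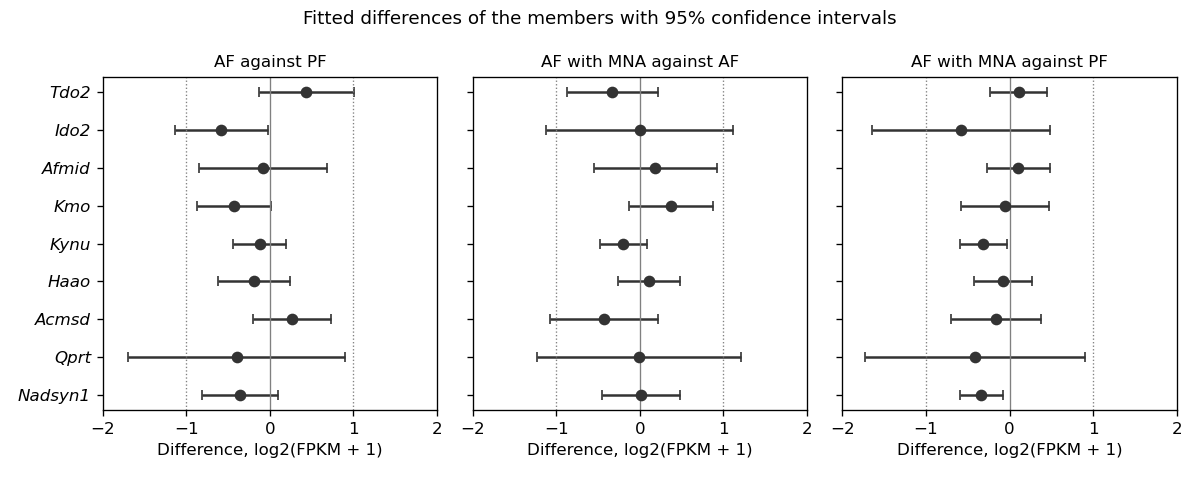
Fitted difference on log2(FPKM + 1) for each enzyme (points) with its 95% confidence interval (bars) in the 3 comparisons (n = 3 libraries per group); the solid line is no difference and dotted lines mark 1 and -1. The interval of Qprt is the widest in each panel, and those that leave out 0 are Ido2 in AF against PF and Kynu and Nadsyn1 in AF with MNA against PF, none past the adjusted threshold.

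The comparison of AF with MNA against AF sets the injected mice beside the others on the alcohol diet, and it shares the AF libraries with the comparison above. Of the 9 enzymes 4 had a higher mean with MNA and 5 a lower one, and again no enzyme passed the test. The fit over 12214 genes called 0 of the 9 at an adjusted p under 0.05, against 0.0491% of all genes, and 0 of the 9 at an unadjusted p under 0.05, against 5.22%. The threshold of the methods was also passed by 0 of the 9, against 1.98%. Groups did not overlap for 1 of the 9, Kynu, against 10.1% of all genes. The median log2 ratio was -0.01 for the 9 and 0.01 for all genes.

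Tdo2 was at 57.2, 57.7 and 66.2 FPKM with MNA, a log2 ratio of -0.37 to AF (adjusted p = 0.968) that was -0.09 without AF replicate 2. Ido2 was at 18.7, 5.14 and 15.5 FPKM with MNA, where replicate 2 was the lowest of all 9 libraries. Its log2 ratio of the means was 0.13, whereas the fitted difference of the log values was -3e-04 (95% interval -1.12 to 1.12). The ratio was -0.22 without MNA replicate 1 and 0.51 without MNA replicate 2. Kmo was at 28.3, 43.8 and 42.1 FPKM with MNA, with replicates 2 and 3 above all AF libraries and replicate 1 inside their range, and its log2 ratio was 0.40 (fitted difference 0.37, 95% interval -0.12 to 0.87, adjusted p = 0.961). When AF replicate 3 and MNA replicate 1, the libraries with high intron signal, were both left out, the ratio of Kmo was 0.47 (adjusted p = 0.629).

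Kynu was at 8.89, 7.97 and 7.98 FPKM with MNA, all below the lowest AF value of 8.91. The log2 ratio was -0.22 (fitted difference -0.20, 95% interval -0.48 to 0.09, adjusted p = 0.965). Haao was at 240, 235 and 231 FPKM with MNA, the tightest group of any enzyme relative to its mean (mean 235 ± 4.46, SD, n = 3), with a log2 ratio of 0.10 to AF that was -0.01 without AF replicate 2 and 0.18 without AF replicate 1. Afmid was at 6.79, 5.36 and 5.89 FPKM, a log2 ratio of 0.13 that was -0.18 without AF replicate 2 and 0.53 without AF replicate 3. Acmsd was at 2.96, 6.13 and 4.73 FPKM, and its log2 ratio of -0.49 (95% interval of the fitted difference -1.07 to 0.22, adjusted p = 0.966) was the most negative of the 9. It was -0.25 without MNA replicate 1, -0.75 without MNA replicate 2, -0.68 without AF replicate 3 and -0.32 without AF replicate 1. Qprt was at 11.7, 11.6 and 30.5 FPKM, a log2 ratio of -0.02 that ranged from -0.65 without MNA replicate 3 to 0.86 without both libraries with high intron signal. Nadsyn1 was at 4.97, 4.06 and 4.48 FPKM, a log2 ratio of -0.01 and a fitted difference of 0.02, with a ratio of -0.20 when AF replicate 2 was left out and 0.21 when AF replicate 3 was.

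In AF with MNA against PF, which uses libraries of both comparisons above, 2 of the 9 enzymes had a higher mean with MNA (Tdo2 and Afmid) and 7 a lower one. The median log2 ratio was -0.15 for the 9 and -0.02 for all genes. The fit over 12276 genes called 0 of the 9 at an adjusted p under 0.05, against 0.432% of all genes, and 2 of the 9 at an unadjusted p under 0.05, against 14.5%. The threshold of the methods was passed by 0 of the 9, against 3.89%. Both enzymes at an unadjusted p under 0.05 also had groups that did not overlap, which held for 21.4% of all genes. Nadsyn1 averaged 4.50 ± 0.455 FPKM with MNA and 5.95 ± 0.461 in PF (SD, n = 3 each). Its log2 ratio was -0.40, with a fitted difference of -0.34 (95% interval -0.60 to -0.08, adjusted p = 0.271). Kynu averaged 8.28 ± 0.528 FPKM with MNA and 10.6 ± 1.26 in PF. The log2 ratio was -0.35, with a fitted difference of -0.32 (95% interval -0.60 to -0.04, adjusted p = 0.305). For the other 7 the log2 ratios lay between -0.46 (Qprt) and 0.12 (Afmid), and their adjusted p-values between 0.603 and 0.935. Without PF replicate 1 that of Qprt turned to 0.15 and that of Afmid to -0.02, and Qprt was at -1.08 without MNA replicate 3. On leaving out 1 library the ratio ran from -0.80 to -0.07 for Ido2, from -0.41 to 0.09 for Acmsd, from -0.18 to 0.12 for Kmo, from -0.19 to 0.0045 for Haao and from 0.03 to 0.23 for Tdo2.

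The enzymes did not vary as a block. Of the 36 pairs, 17 had a positive Pearson correlation over the 9 libraries on log2(FPKM + 1), with a median r of -0.03. These values describe libraries that share groups, depth and scaling, and carry no test. The lowest was that of Tdo2 with Haao, r = -0.90 over 9 libraries (Spearman's rho = -0.70). They lay on opposite sides of their means in 7 of the 9 libraries and on the same side in AF replicates 1 and 3. The correlation was -0.78 without AF replicate 2 and -0.61 without the pair of libraries farthest from the Tdo2 median. AF replicate 2 had the highest Tdo2, 105 FPKM, and the lowest Haao, 186 FPKM, and PF replicate 3 the lowest Tdo2, 50.3 FPKM, and the highest Haao, 282 FPKM. The highest was that of Ido2 with Nadsyn1, r = 0.76. In AF replicate 2, 7 of the 9 enzymes were below their mean over all libraries, the exceptions being Tdo2 and Acmsd, with a median deviation of -0.33 on log2(FPKM + 1).

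**Figure D3:**
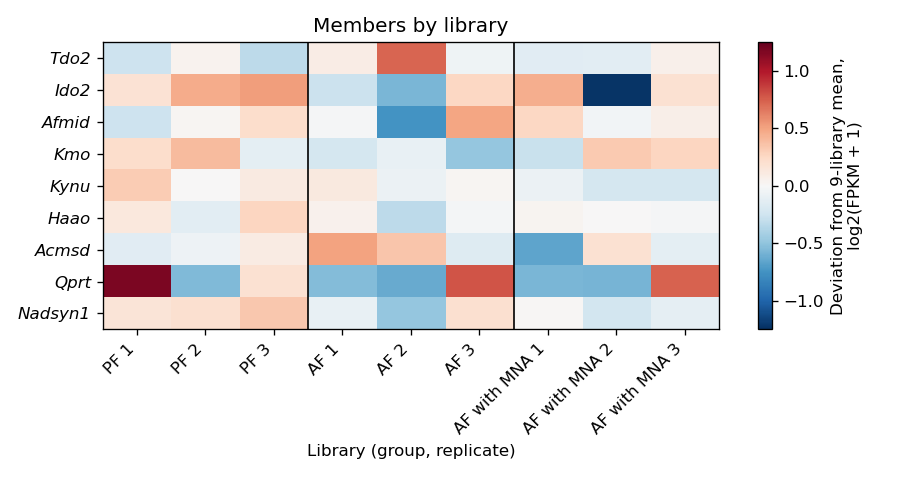
Deviation of each enzyme (rows) from its mean over the 9 libraries (columns, by group and replicate) on log2(FPKM + 1), red above and blue below the mean. AF replicate 2 is below the mean in 7 of 9 rows, and the Qprt and Ido2 rows carry the strongest colours within single groups.

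Variation between libraries of 1 group was unequal over the pathway. The within-group SD on log2(FPKM + 1) was 0.81 for Qprt, at the 96.6 percentile of 12252 genes, and 0.59 for Ido2, at the 92.5 percentile. It was 0.17 for Haao and 0.12 for Kynu, the 34.4 and 14.8 percentiles, against a median of 0.21 for all genes. The ratio of Qprt to Acmsd, the enzymes at the branch, was 8.92, 2.39 and 3.60 in PF against 1.52, 1.61 and 6.88 in AF, and 3.94, 1.89 and 6.44 with MNA. These ratios of levels overlapped among the 3 groups. The ratio of Haao to Kynu was 21.3, 22.5 and 27.4 in PF against 23.3, 20.9 and 24.0 in AF, and 27.0, 29.4 and 29.0 with MNA. These ratios of levels were not tested, and those of Haao to Acmsd and of Kmo to Kynu overlapped between AF and AF with MNA.

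The second entries of Qprt, Ido2 and Acmsd bear on how far their levels can be read. The Qprt entry of 1 assembled transcript was at 0, 5.63 and 0 FPKM in PF, at 27.2, 2.87 and 1.65 in AF and at 27.0, 1.20 and 0.590 with MNA. It was high in AF replicate 1 and MNA replicate 1, where it held 69.4% and 69.9% of the summed FPKM of both entries, and between 0 and 32.2% elsewhere. Plain sums of the known and assembled entries were 41.5, 17.5 and 20.5 FPKM in PF, 39.1, 14.0 and 33.2 in AF and 38.6, 12.8 and 31.1 with MNA. The strand and overlap of the assembled Qprt and Ido2 entries were not checked. The sums and shares therefore describe entries and are not a level of the enzyme. The summed values overlapped among the groups, and the assembled entry alone did not pass the test in AF against PF, at a fitted difference of 1.81 (95% interval -0.83 to 4.46, adjusted p = 0.626 over all 17974 entries tested). For Ido2 the assembled entry followed the known one, r = 0.83 over the 9 libraries, and held 14.1% to 34.0% of the sum. Without the pair of libraries farthest from the median of the known entry, r was 0.69. For Qprt r was -0.50 over the 9 libraries and -0.43 without the farthest pair, and for Acmsd 0.48 and -0.03.

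The Acmsd entry of assembled transcripts was at 0.560, 5.64 and 8.16 FPKM in PF, at 10.4, 2.21 and 3.41 in AF and at 2.76, 1.07 and 2.52 with MNA, and its group ranges overlapped. It holds 13 transcripts, of which 2 are also in the lncRNA table, and both of these lie on the strand opposite to Acmsd, so that the entry cannot be read as a level of the enzyme. The longer of these, with 2 exons, runs across the Acmsd start. Its level as a transcript was 0, 3.84 and 10.7 FPKM in PF, at 0, 0 and 1.18 in AF and at 0, 5.15 and 0 with MNA. In PF replicate 3 (10.7 against 8.16) and MNA replicate 2 (5.15 against 1.07) the transcript exceeded the entry that holds it. Levels of transcripts and of entries therefore cannot be set side by side here. The transcript was listed at 0 in at least 1 library of each group, and its groups overlapped. In all, the lncRNA table held 9 transcripts inside or within 5000 bp of the 9 enzyme genes.

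**Figure D4:**
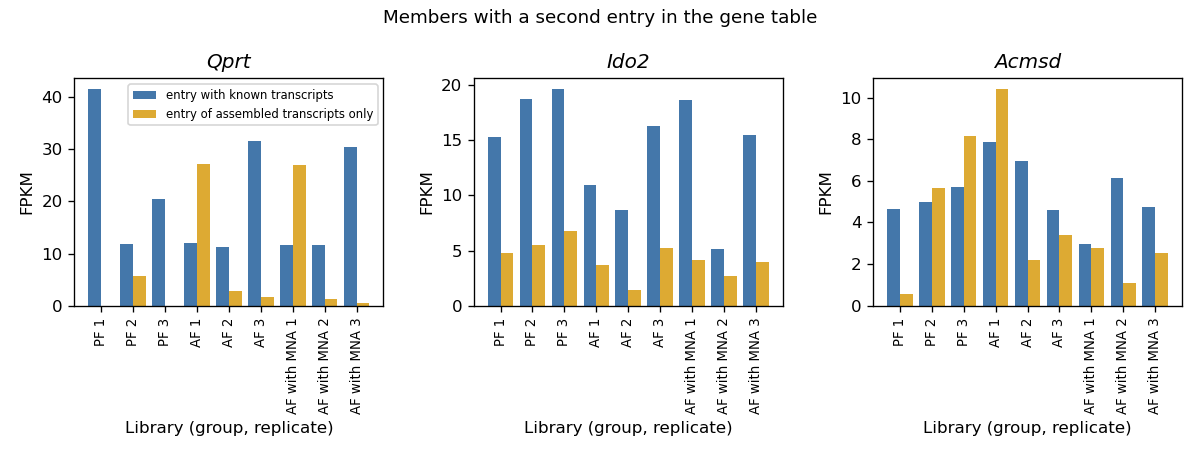
FPKM of the entry with known transcripts (blue) and the entry of assembled transcripts only (yellow) for Qprt, Ido2 and Acmsd in each library (bars start at 0; 1 bar per library). The assembled Qprt entry reaches 27.2 and 27.0 FPKM in AF replicate 1 and MNA replicate 1 and is 5.63 or lower elsewhere.

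Circular RNAs gave a second, sparse readout of the same genes. These rings form when the end of an exon is joined back to the start of an earlier or the same exon, and they were counted as reads across that junction. The table held 7 circular RNAs from the 9 genes, 5 from Kynu, 1 from Ido2 and 1 from Haao, with 18 junction reads in all. The junction with the most reads, 6, joined the end of exon 10 of Kynu back to the start of exon 9 (chr2:43628953-43631619, plus strand, both exons in the coding part of ENSMUST00000028223). It is shown with 20 bases of exon 10 in lower case followed by 20 bases of exon 9 in capitals, read from the GENCODE M21 transcript on GRCm38.
Kynu exon 10 to exon 9 junction: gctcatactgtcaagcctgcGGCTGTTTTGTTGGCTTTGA

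This junction had 4 reads in PF replicate 2 and 2 in AF replicate 3, and 0 in the other 7 libraries. Junction reads of all 7 rings numbered 0, 7 and 4 in PF against 1, 4 and 2 in AF, and 0, 0 and 0 with MNA. In the 3 MNA libraries a count of 0 allows a share of up to 0.118%, 0.132% and 0.189% of the 2545, 2272 and 1588 circular junction reads of each (an upper limit of 3 counts, for counting error only). PF replicate 1 was also at 0, with a limit of 0.153%. The groups were not tested on these few reads.

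The genes around the pathway were taken from 5 lists, chosen with earlier results of these data known. In the list of tryptophan supply and other tryptophan or kynurenine enzymes, 0 of 10 tested genes passed the adjusted test in each of the 3 comparisons, and at an unadjusted p under 0.05 there was 1 higher and 1 lower in AF against PF, 1 lower in AF with MNA against AF, and 1 higher and 1 lower in AF with MNA against PF. The shares of all tested genes at that p, in either direction, were 11.7%, 5.22% and 14.5%. Ddc, the aromatic amino acid decarboxylase, was at 4.05, 3.70 and 3.04 FPKM in PF, 7.43, 8.25 and 4.60 in AF and 8.41, 6.81 and 6.84 with MNA, so that every alcohol-fed library was above every PF library (log2 ratio 0.91 and adjusted p = 0.294 in AF, 1.03 and 0.0892 with MNA, both against PF, where groups did not overlap for 18.3% and 21.4% of all genes). Kyat1, a kynurenine aminotransferase, lay the other way, at 13.5, 15.5 and 15.6 FPKM in PF, 9.22, 12.5 and 10.5 in AF and 6.77, 9.38 and 7.72 with MNA (log2 ratio -0.46 and adjusted p = 0.355 in AF, -0.90 and 0.0983 with MNA). Aadat, which also transaminates kynurenine, had a mean of 28.1 FPKM in PF and 17.7 in AF (adjusted p = 0.485). It was at 22.4, 41.0 and 20.8 FPKM in PF and 17.5, 21.1 and 14.4 in AF, with PF replicate 2 the highest of all libraries. With MNA against AF the lowest p-values of the list belonged to the amino acid transporter Slc16a10, Kyat1 and Slc3a2, with log2 ratios of -0.37, -0.44 and -0.31, and all 3 had an adjusted p of 0.940. The median log2 ratio of the list was 0.13, -0.30 and -0.20 in AF against PF, AF with MNA against AF and AF with MNA against PF, where that of all tested genes was -0.03, 0.01 and -0.02.

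Of the 8 genes of the oxidation branch that follows Acmsd, 0 passed the adjusted test in any of the 3 comparisons, and 1 was lower at an unadjusted p under 0.05 in AF against PF, with 0 in the comparisons with MNA (11.7%, 5.22% and 14.5% of all genes). That gene was Aldh8a1, the dehydrogenase that takes the product of Acmsd, at 38.9, 52.8 and 38.1 FPKM in PF and 32.1, 27.7 and 34.2 in AF (log2 ratio -0.46, adjusted p = 0.402). Acat1 and Hadh, shared with fatty acid and ketone metabolism, had log2 ratios of -0.44 and -0.51 (adjusted p = 0.446 and 0.544). Acat1 was at 47.3, 47.0 and 55.1 FPKM in PF and 42.2, 27.1 and 40.4 in AF, where replicate 2 was the lowest of all libraries. Hadh was at 18.9, 28.9 and 32.5 FPKM in PF and 14.7, 24.6 and 17.1 in AF. The median log2 ratio of the branch was -0.22 in AF against PF and 0.21 in AF with MNA against AF, comparisons that share the AF libraries. With MNA against AF the lowest p-values were those of Acat1, Dhtkd1 and Oxct1 (log2 ratios of 0.38, 0.27 and 0.24), and against PF those of Aldh8a1, Gcdh and Dhtkd1 (-0.35, 0.21 and 0.29).

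Among 12 tested genes for the steps from mononucleotide to NAD and for other NAD precursors, 0 passed the adjusted test in any comparison, with 1 higher and 3 lower at an unadjusted p under 0.05 in AF against PF and 2 higher and 0 lower in either comparison with MNA (11.7%, 5.22% and 14.5% of all genes in either direction). The median log2 ratio was 0.08, 0.08 and 0.07 in the order of comparisons above. Nmrk1, the kinase that makes nicotinamide mononucleotide from nicotinamide riboside, was at 5.92, 7.54 and 8.38 FPKM in PF, 3.52, 1.79 and 4.05 in AF and 6.75, 5.59 and 6.96 with MNA. The 3 AF values were below all others, where groups did not overlap for 18.3% of all genes in AF against PF and 10.1% in AF with MNA against AF (log2 ratio -1.22, adjusted p = 0.205 in AF against PF, and 1.04, adjusted p = 0.940 in AF with MNA against AF). Nmnat1, which joins the mononucleotide to adenylate, was at 4.28, 4.12 and 3.53 FPKM in PF and 2.84, 3.30 and 2.76 in AF (log2 ratio -0.42, adjusted p = 0.390). Aox1, an aldehyde oxidase, was at 3.41, 2.29 and 2.49 FPKM in PF, 3.83, 6.78 and 3.78 in AF and 4.91, 5.28 and 5.21 with MNA (log2 ratio 0.81 and adjusted p = 0.390 in AF, 0.91 and 0.113 with MNA). Nadk2, the mitochondrial NAD kinase, had a log2 ratio of 0.40 in AF with MNA against AF. Nampt, the salvage enzyme, and Slc25a47, a mitochondrial carrier, had log2 ratios of 0.39 and -0.32 in AF with MNA against PF, with adjusted p-values of 0.335 and 0.669. Slc25a47 was at 73.9, 47.7 and 79.4 FPKM in PF and 38.2, 43.4 and 79.1 with MNA, so that MNA replicate 3 lay apart from the other MNA libraries.

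Of 10 tested NAD consumers 0 passed the adjusted test in any comparison, with 1 higher and 2 lower at an unadjusted p under 0.05 in AF against PF, 0 in AF with MNA against AF, and 1 higher and 2 lower in AF with MNA against PF (11.7%, 5.22% and 14.5% of all genes in either direction). The median log2 ratios were -0.11, 0.06 and -0.05. Parp14 was at 4.54, 4.68 and 4.61 FPKM in PF and 3.82, 2.28 and 3.07 in AF (log2 ratio -0.59, adjusted p = 0.346), and the deacylase Sirt5 at 4.94, 5.13 and 5.52 in PF and 4.29, 2.25 and 3.92 in AF (log2 ratio -0.58, adjusted p = 0.414). Cd38, an NAD glycohydrolase, was at 2.83, 2.18 and 2.42 FPKM in PF and 3.67, 5.54 and 2.97 in AF (log2 ratio 0.71, adjusted p = 0.404). In AF with MNA against PF, Parp14, Parp1 and Cd38 had the lowest p-values, with log2 ratios of -0.46, -0.44 and 0.50. In AF with MNA against AF they were those of the sirtuins Sirt6, Sirt5 and Sirt3, with log2 ratios of -0.55, 0.35 and 0.16.

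In the list of known regulators and cofactor supply 0 of 19 tested genes passed the adjusted test in any comparison, and 4 were higher and 0 lower at an unadjusted p under 0.05 in AF against PF, 2 higher and 1 lower in AF with MNA against AF, and 5 higher and 1 lower in AF with MNA against PF (11.7%, 5.22% and 14.5% of all genes in either direction). The median log2 ratios were 0.15, -0.04 and 0.20. Cyp1a2, a target of the aryl hydrocarbon receptor, was at 295, 353 and 302 FPKM in PF, 704, 501 and 653 in AF and 660, 606 and 540 with MNA, with every alcohol-fed library above every PF library, as for 18.3% and 21.4% of all genes without overlap in either direction (log2 ratio 0.97 and adjusted p = 0.127 in AF, 0.93 and 0.0907 with MNA). Tiparp, another target of that receptor and named after its values were seen, was at 2.12, 0.740 and 2.04 FPKM in PF, 3.32, 5.17 and 1.58 in AF and 1.35, 1.71 and 1.39 with MNA (log2 ratio 1.04 in AF and -0.14 with MNA against PF, adjusted p = 0.537 and 0.964). Fkbp5 and Tat, which are classical glucocorticoid targets, had log2 ratios of 0.73 and 1.24 in AF against PF (adjusted p = 0.365 and 0.393). The glucocorticoid targets Per1 and Tsc22d3 of the same list had ratios of 0.31 and 0.39 (adjusted p = 0.497 and 0.815), and are named after their values were seen. Tsc22d3 was at 2.24, 3.58 and 5.20 FPKM in PF and 5.83, 2.30 and 6.28 in AF, where replicate 2 lay inside the PF range. Tat was at 115, 241 and 137 FPKM in PF, 387, 581 and 197 in AF and 301, 126 and 197 with MNA, and PF replicate 2 was above AF replicate 3. Ahr itself was at 5.96, 6.68 and 6.48 FPKM in PF, 5.29, 5.35 and 6.31 in AF and 4.21, 3.84 and 3.73 with MNA, where all 3 values were below those of the other groups, with 21.4% of all genes not overlapping against PF and 10.1% against AF (log2 ratio -0.70, adjusted p = 0.0907 against PF, and -0.52, adjusted p = 0.940 against AF). Rfk, the kinase that turns riboflavin into FMN, the precursor of the FAD that Kmo carries, was at 15.6, 3.52 and 2.13 FPKM in PF, 3.25, 2.48 and 11.1 in AF and 20.9, 16.8 and 15.5 with MNA, and Pdxk, which makes the pyridoxal phosphate used by Kynu, had a log2 ratio of 0.49 in AF with MNA against AF (adjusted p = 0.940 for both). Hmox1, a haem oxygenase, was at 6.51, 6.48 and 4.80 FPKM in PF, 15.8, 160 and 10.5 in AF and 19.8, 18.1 and 8.46 with MNA. Every alcohol-fed library was above every PF library, as for 18.3% and 21.4% of all genes without overlap in either direction, with AF replicate 2 far above the rest (log2 ratio 1.38 and adjusted p = 0.218 in AF with MNA against PF).

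The KEGG labels of the gene table gave a wider view, and the genes named from them were chosen after their values were seen. Of 23 tested genes labelled with tryptophan metabolism and outside the 9 enzymes, 1 passed the adjusted test in AF against PF, and the same held for 15 labelled with nicotinate and nicotinamide metabolism, against 0.326% of all genes. At an unadjusted p under 0.05 in that comparison, 3 were higher and 5 lower of the 23, and 3 higher and 4 lower of the 15, against 11.7% of all genes. The counts in AF with MNA against AF were 2 higher and 0 lower of the 23, and 1 higher and 0 lower of the 15 (5.22% of all genes), and in AF with MNA against PF 3 were higher and 3 lower of the 23, and 2 higher and 3 lower of the 15 (14.5%). The gene was Aox3 in both, a liver aldehyde oxidase. It was at 65.8, 60.6 and 53.8 FPKM in PF, 23.0, 21.5 and 23.0 in AF and 21.3, 28.7 and 26.4 with MNA. Aox3 fell in AF against PF by 1.42 on the log2 scale of mean FPKM (adjusted p = 0.0141) and in AF with MNA against PF by 1.24 (adjusted p = 0.0445), and AF with MNA differed from AF by 0.18 (adjusted p = 0.980). In both comparisons with PF its direction held under every alternative run, but the adjusted call did not. In AF against PF the adjusted p was 0.108 with the replicate block and 0.0410 to 0.0708 on leaving out 1 library, above 0.05 without PF replicate 1 or 2 or AF replicate 1 or 3. For AF with MNA against PF it was 0.247 with the block, 0.0559 with median scaling, 0.0789 with every gene above 0, 0.0534 with all gene entries and 0.0714 to 0.136 on leaving out any 1 library.

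For each enzyme the known gene with the most similar pattern over the 9 libraries, among 12252, was also read out, as a description of 9 points that share groups and depth. The highest Pearson r on log2(FPKM + 1) was 0.95 for Tdo2 with Gab2, 0.96 for Ido2 with Prkar1a, 0.98 for Afmid with Bcat2, 0.94 for Kmo with Nmnat1, 0.98 for Kynu with Arfgap3, 0.97 for Haao with Gtf3c5, 0.91 for Acmsd with Ppp1r15a, 0.94 for Qprt with Tmem29 and 0.98 for Nadsyn1 with Rabggta. Each value is the largest of all those searched. Spearman's rho was lowest for Qprt with Tmem29, at 0.72. Without the pair of libraries farthest from the median of the enzyme, r was lowest for Ido2 with Prkar1a, at 0.84. Of these partners Nmnat1 is the NAD-forming enzyme named above.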

How the data were processed

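Liver RNA of 9 mice was sequenced by the authors from strand-specific, ribosomal RNA-depleted libraries, 1 per mouse label, read from both ends. The deposited FPKM values, for genes and for lncRNA transcripts, were made by the authors with StringTie (version 1.3.4 in the submitters' processing notes, which also name cutadapt 1.9, FastQC, HISAT2, TopHat and edgeR without their roles). The circular RNA counts are back-splice junction reads as deposited, and their normalized signal, deposited by the authors, served to recover total reads. The genome build is not given in the sources used here. Of 7841 known lncRNAs found in GENCODE M21 (GRCm38), 7708 had the same start and end.

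Known, named gene entries whose mean over both groups reached 0.5 FPKM were tested, two-sided, on log2(FPKM + 1) in limma 3.58.1 (lmFit, then eBayes with its trend option) and Benjamini-Hochberg adjustment. On data simulated for AF against PF with 12268 genes, the fit recovered 35 of 100 genes changed by 1 on the log2 scale and 78 of 100 changed by 2, with 5 false calls. Ratios are of group mean FPKM, and fitted differences are on log2(FPKM + 1), which understates changes of low genes. The gene and lncRNA tables give no counts, so precision was judged from the spread of 3 libraries, and p-values measure only that spread, which may be technical. All columns of sample values were matched to a library, and groups came from the labels.

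The members and lists were chosen with earlier results of these data known. All 9 enzymes were named, and of each list the genes at an adjusted p under 0.05 or, with none, the 3 with the lowest p. The single most similar gene per enzyme was named by Pearson r. Alternatives were a pseudocount of 0.1, a minimum of 2 FPKM or any value above 0, median scaling, no trend, all 9 libraries in the fit, a replicate block, the limma coefficient in place of the ratio, and each library left out. All gene entries, and leaving out both libraries with high intron signal, were added after the data were seen. Start regions are from RefSeq (GRCm38.p6). Those of Kynu and Ido2 were not analysed here, and 1 other is not reported here. R 4.3.3, Python 3.11.15, pandas 2.3.3, numpy 2.4.6 and matplotlib 3.10.9 were used.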

Additional observations from a re-analysis of the deposited data

How the results depend on the processing

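None of the 9 enzymes passed an adjusted p of 0.05 in any comparison under any alternative run. The direction of the log2 ratio under the alternatives turned for Afmid and Qprt in AF against PF, for Ido2, Afmid, Haao, Qprt and Nadsyn1 in AF with MNA against AF, and for Afmid, Kmo, Haao, Acmsd and Qprt in AF with MNA against PF, each time when libraries were left out. This ratio uses group mean FPKM, so that only leaving libraries out and median scaling could turn it. In the main fit of AF with MNA against AF, ratio and fitted difference had opposite signs for Ido2 (0.13 and -3e-04) and Nadsyn1 (-0.01 and 0.02).

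Counts of all genes moved more. In AF against PF the 40 genes at an adjusted p under 0.05 became 86 with all 9 libraries in the fit, 18 with the replicate block and 25 with every gene above 0. Leaving out 1 library gave 25 to 47, with 25 without PF replicate 2, 26 without PF replicate 3 and 25 without AF replicate 1. In AF with MNA against AF the 6 became 0, 1 and 2 under these settings, 2 with a minimum of 2 FPKM, 3 without AF replicate 3 and AF with MNA replicate 1, and 6 to 13 without 1 library, with 13 without AF replicate 2 and 12 without AF with MNA replicate 3. The fit of all 9 libraries that called 0 had 752 genes at an unadjusted p under 0.05 in limma. In AF with MNA against PF the 53 became 0 with the block (1452 at an unadjusted p under 0.05 in limma), 22 with every gene above 0 and 24 to 47 without 1 library, with 34, 35 and 34 without PF replicates 1, 2 and 3 and 24 without AF with MNA replicate 3.

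The threshold of the methods, passed by 527, 242 and 477 genes in AF against PF, AF with MNA against AF and AF with MNA against PF, was passed by 1183, 676 and 1105 with every gene above 0, 265, 81 and 228 with a minimum of 2 FPKM, 993, 572 and 837 with all gene entries, and 249, 99 and 229 with the limma coefficient in place of the ratio. It was passed by 470 in AF with MNA against AF without AF replicate 3 and AF with MNA replicate 1. Without 1 library the counts were 516 to 764, 211 to 367 (the highest without AF replicate 3) and 467 to 545. The cause of these shifts was not tested beyond the number of genes and libraries each setting uses.

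Same-numbered libraries did not deviate together (correlations between -0.08 and 0.06). These correlations showed no pairing by replicate number but cannot exclude one. The block counts above describe a model with those numbers in it. The 3 libraries per group limit every interval given here.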
